A study of Mus musculus with 12 samples.

Results

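Genes of the major histocompatibility complex (MHC) and their closest partners were examined in mouse liver. The set was the protein-coding genes whose symbol starts with H2-, the prefix of the mouse MHC, together with Cd74, B2m, Tap1, Tap2, Tapbp, Ciita and Nlrc5. Of 43346 genes in the count table, 41 met this rule and 34 of them were H2- genes. Enough counts for a test were found for 29 of the 41, among 16283 genes tested in all. The study sequenced RNA from whole liver in 12 libraries, 3 in each of 4 groups. Knockout mice were S1pr1 loxp/loxp;Lyz2-Cre/0, in which Cre acts in myeloid cells and removes the receptor S1pr1 there. Their littermates, called wild type, were S1pr1 loxp/loxp, so the loxP-flanked allele was shared by all 4 groups. From 12 weeks of age the mice of each genotype were fed for 24 weeks with standard chow or with a diet in which fat, fructose and cholesterol were high (FFC). The groups are wild-type chow (replicates 2, 3 and 4), knockout chow (1, 2 and 3), wild-type FFC (2, 3 and 4) and knockout FFC (1, 4 and 7). Values for single libraries are listed below in this order of replicates. The labels do not tie each library to a mouse of its own, so p-values refer to the spread between these libraries, which may be technical.

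MHC class I molecules sit on nearly every cell, hepatocytes included, and show peptides from inside the cell to CD8 T cells. Each is a heavy chain paired with beta-2 microglobulin, the product of B2m. The transporter Tap1-Tap2 brings peptides into the endoplasmic reticulum, where tapasin (Tapbp) holds the empty class I molecule. Class II molecules are made mainly by professional antigen-presenting cells, which in liver include dendritic cells, macrophages and B cells, and they show endocytosed peptides to CD4 T cells. Their alpha and beta chains assemble on the invariant chain, encoded by Cd74. H2-DM exchanges the invariant chain fragment for peptide and H2-O restrains H2-DM. Ciita is the transactivator of class II genes and Nlrc5 that of class I genes, and neither binds DNA by itself: both are held at promoters by factors on the X and Y boxes.

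Promoter sequence was available for 22 of the 29 tested genes in RefSeq (GRCm38.p6). The windows below were searched for the cores of the X and Y boxes, the elements through which Ciita is known to act, in class II genes described next. Each covers 120 bases, from 140 to 21 bases before the annotated start, 5′ to 3′ on the gene's strand. Capitals mark matches to AACNGATG, a core of the X box, and TGATTGG, a core of the Y box, which is the CCAAT box read on the other strand. The letters were chosen after these windows were read, and both strands were searched.
H2-Eb1: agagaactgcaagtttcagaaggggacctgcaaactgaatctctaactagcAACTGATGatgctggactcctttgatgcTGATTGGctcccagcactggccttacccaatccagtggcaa
H2-DMb1: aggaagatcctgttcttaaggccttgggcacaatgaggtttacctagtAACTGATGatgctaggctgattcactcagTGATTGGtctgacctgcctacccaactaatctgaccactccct
H2-DMb2: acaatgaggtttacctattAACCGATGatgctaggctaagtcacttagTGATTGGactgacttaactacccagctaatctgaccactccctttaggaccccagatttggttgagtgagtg
H2-Aa: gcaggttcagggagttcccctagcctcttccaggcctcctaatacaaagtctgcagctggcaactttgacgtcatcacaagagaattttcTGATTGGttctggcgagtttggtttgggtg
H2-Ob: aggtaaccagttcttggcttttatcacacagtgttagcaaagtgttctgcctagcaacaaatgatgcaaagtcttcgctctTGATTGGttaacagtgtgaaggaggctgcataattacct
These windows lie on chromosome 17 at chr17:34305727-34305846 (H2-Eb1, plus strand), chr17:34153051-34153170 (H2-DMb1, plus), chr17:34145109-34145228 (H2-DMb2, plus), chr17:34287844-34287963 (H2-Aa, minus) and chr17:34238765-34238884 (H2-Ob, plus). H2-Eb1, H2-DMb1 and H2-DMb2 held both matches, with 20, 21 and 21 bases between them. In H2-Aa, H2-Ob and H2-Oa the Y box core was matched and the X box core was not. Neither core was matched in the windows of H2-DMa. Cd74 and H2-Ab1 were among the genes without promoter sequence. The annotated starts behind the windows of H2-DMa lie 12.4 and 9.7 kb upstream of the gene as counted and that of H2-DMb2 1.9 kb inside it, so they may not be the promoters behind these counts. Longer stretches, 250 bases before to 50 bases after the start, were searched in all 32851 promoters of the same source. There 7.817% held the Y box core, 2.32% the X box core and 0.1857% both, so these shares are not per 120 bases. Of class I, H2-K1, H2-D1, H2-Q4, H2-Q6, H2-Q7 and H2-T23 held the Y box core in the same longer stretches, all on the opposite strand. The match began 52 to 55 bases before the start in H2-D1, H2-Q4, H2-Q6 and H2-T23 and 16 before it in H2-Q7. In H2-K1 it began 6 bases before or 8 after the start, by the annotated start used. H2-T22 held it on the same strand at 90 bases and Tap1 on the opposite strand at 222 bases before the start. B2m, Tapbp, H2-Q10, H2-Q2, H2-M2 and H2-M3 held no match. Use of these matches was not tested.

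Total counts per library were 18873092 to 31154930, and between 16008 and 21308 genes had at least 1 count. S1pr1 itself, which many liver cells outside the myeloid lineage also express, was at 33.8 ± 9.27 and 34.2 ± 6.74 CPM in wild-type and knockout livers on chow, and at 34.04 ± 5.09 and 36.7 ± 1.97 CPM on FFC (SD, n = 3). The genotypes overlapped, with log2 differences of 0.02 (SE 0.20) and 0.11 (SE 0.20) that did not pass, so S1pr1 in whole liver does not check the genotype labels. Knockout chow replicate 1 stood apart, with the lowest albumin share on chow (7.31%) and the highest Cd74, H2-K1, H2-D1 and Tapbp of its group, and its effect on the results is given beside the genes where it was largest. Albumin took 6.16% to 14.3% of the counts, and of 8 hepatocyte markers 6 were lower on FFC in wild type and 8 in knockout. Levels are given as CPM, read counts brought to a common library total with trimmed mean of M-values (TMM) scaling factors, and levels of different genes are compared as CPM per kilobase of gene model. The TMM factors were 0.759 to 0.961 in chow and 1.09 to 1.25 in FFC libraries. Scaling by library totals alone moved the median log2 change of all genes between diets from 0.04 to 0.47 in wild type and from 0.09 to 0.57 in knockout, so small diet changes depend on the scaling and are given here relative to the TMM centre. With library totals alone 4 of the 8 hepatocyte markers were lower on FFC in each genotype. A group's level in whole liver cannot tell more cells of a type from more RNA per cell.

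B2m and the classical class I genes were far more abundant than class II genes. In wild-type chow liver B2m (chromosome 2, 122147686 to 122153083 in mm10) led with 2467 ± 726 CPM per kilobase (SD, n = 3). H2-Q10, a secreted class I protein of mouse liver, followed at 374.9 and H2-K1 at 371.8, which did not differ beyond their spread, and then H2-D1 at 128. H2-T23, which encodes the non-classical molecule Qa-1, stood at 55.2 and Cd74 at 29.7 ± 2.97. The class II chains H2-Aa, H2-Eb1 and H2-Ab1 reached 14.8 ± 4.48, 13.0 ± 1.69 and 7.26 ± 1.29, and the transactivators Nlrc5 and Ciita 2.26 ± 0.267 and 0.135 ± 0.126. No count was found in any library for 8 genes (H2-M1, H2-M9, H2-M10.1, H2-M10.3, H2-M10.4, H2-M10.5, H2-M11 and H2-T3), which allows up to 0.0790 to 0.197 CPM depending on the library (3 counts, counting error only). A further 4 genes had counts but too few for a test: H2-Eb2, H2-M5, H2-M10.2 and H2-M10.6, with 56, 9, 1 and 10 counts over all libraries.

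On FFC, 10 of the 29 tested genes passed the edgeR quasi-likelihood test (adjusted p under 0.05) against chow in wild type, 9 higher and 1 lower, where 16.8% of all tested genes passed (8.76% higher, 8.03% lower). In knockout, 14 of 29 passed, 10 higher and 4 lower, against 26.5% of all genes (13.7% higher, 12.8% lower). Levels in FFC lay above every chow level for 18 of 29 genes in wild type, against 25% of all genes, and for 11 of 29 in knockout, against 23.4%. They lay below for 4 in wild type (20.1% of all genes) and for 8 in knockout (16.1%). The filter on low counts asks for expression in 3 libraries, so a gene near 0 on chow such as H2-M2 entered the test through its FFC libraries alone and these shares describe the 29 genes only. The wild-type count fell to 6 without wild-type chow replicate 3 or FFC replicate 2, where 10% and 7.81% of all genes passed. It was 17 with library totals alone, where 27.0% of all genes passed. Without knockout chow replicate 1 the count in knockout was 17, where 26.5% of all genes passed. In that fit Cd74 was at 1.94, H2-Eb1 at 2.598, Tapbp at -0.72 and H2-K1 at -0.19 on the log2 scale.

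**Figure D1:**
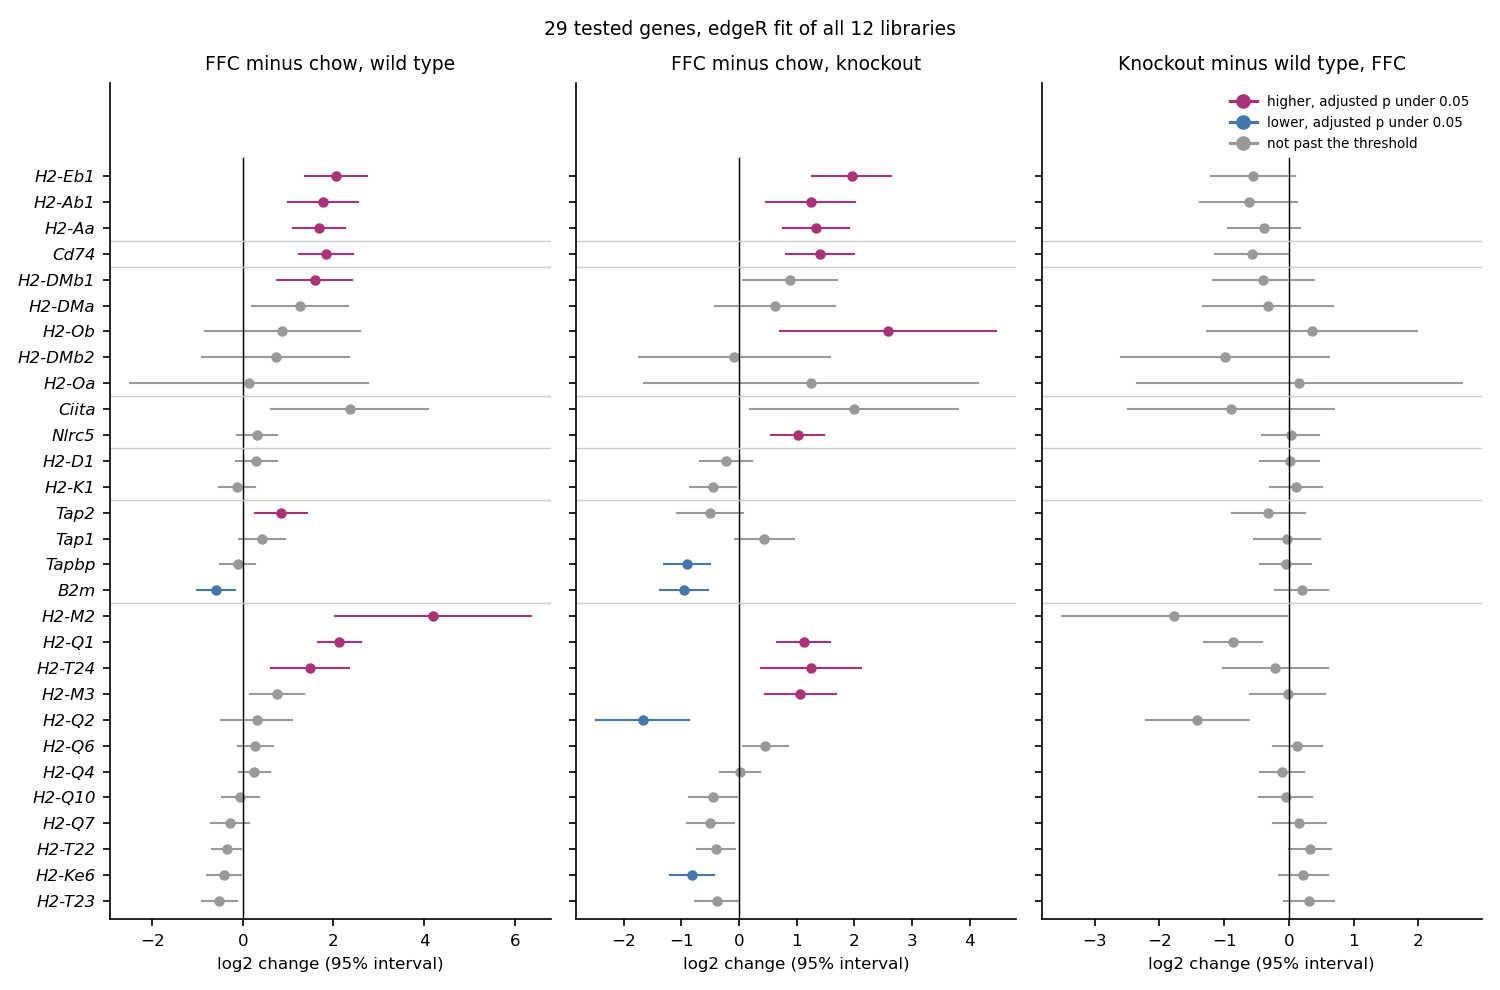
Log2 change (points) with its 95% interval (lines) for the 29 tested genes from the edgeR fit of all 12 libraries, in FFC against chow for each genotype and in knockout against wild type on FFC, grouped by role. The class II chains and Cd74 lie right of 0 in both diet comparisons and no gene passed in the genotype comparison; the knockout diet value of H2-M2 is not drawn because all 3 knockout chow libraries were at 0.

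The class II chains and the invariant chain rose together on FFC in both genotypes. All 3 tested chains and Cd74 passed in wild type and in knockout, with increases of 3.20- to 4.15-fold in wild type and 2.37- to 3.88-fold in knockout. Cd74 (ENSMUSG00000024610, chromosome 18, 60803848 to 60812646 in mm10) stood at 38.4, 40.9 and 46.6 CPM in wild-type chow and at 62.1, 21.5 and 31.5 CPM in knockout chow. The FFC livers had 157, 134 and 160 CPM in wild type and 110, 114 and 79.6 CPM in knockout. Every FFC library lay above every chow library, and among the chow libraries knockout replicate 1 was the highest. The log2 change of Cd74 was 1.84 (SE 0.28, edgeR adjusted p = 4.26e-04) in wild type and 1.398 (SE 0.28, edgeR adjusted p = 0.00198) in knockout.

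H2-Eb1 (ENSMUSG00000060586, chromosome 17, 34305877 to 34316199), the beta chain of the E molecule, had the largest change among the 3 tested chains. Its chow levels were 13.3, 15.5 and 17.3 CPM in wild type and 19.2, 7.44 and 6.98 CPM in knockout. The FFC levels were 65.0, 55.8 and 71.1 CPM in wild type and 52.6, 49.0 and 29.3 CPM in knockout. Diets did not overlap in either genotype, and the log2 change was 2.05 (SE 0.32, edgeR adjusted p = 5.82e-04) in wild type and 1.95 (SE 0.32, edgeR adjusted p = 6.26e-04) in knockout. The only H2-Ea entry, H2-Ea-ps, is listed as a pseudogene and had 0 counts in every group. The levels of H2-Eb1 therefore do not show that the E molecule is made. The A molecule is made of the chains of H2-Aa (chromosome 17, 34282744 to 34287827) and H2-Ab1 (chromosome 17, 34263209 to 34269418). H2-Aa stood at 23.1, 22.6 and 37.4 CPM in wild-type chow livers and 35.4, 17.6 and 27.6 CPM in knockout chow livers, against 90.1, 73.0 and 103 CPM and 73.7, 82.8 and 47.3 CPM on FFC, without overlap of the diets. H2-Ab1 was 9.46, 13.3 and 12.9 CPM in wild-type chow and 19.4, 5.10 and 8.62 CPM in knockout chow. It reached 41.8, 35.1 and 44.5 CPM in wild-type FFC and 33.6, 27.7 and 17.6 CPM in knockout FFC. For H2-Ab1 alone among the chains, knockout FFC replicate 7 fell below the highest knockout chow library, replicate 1.

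Log2 changes of H2-Aa were 1.68 (SE 0.27) in wild type and 1.34 (SE 0.27) in knockout, with edgeR adjusted p of 5.79e-04 and 0.00194. Those of H2-Ab1 were 1.77 (SE 0.36) and 1.24 (SE 0.36), with edgeR adjusted p of 0.00425 and 0.0194. The calls of H2-Ab1 in knockout ended when knockout chow replicate 2 or 3 or knockout FFC replicate 1 or 4 was left out (edgeR adjusted p 0.0554 to 0.0822) and in a fit of the 2 groups alone (0.0827), while without knockout chow replicate 1 the change was 1.95 (2.79e-04). With offsets for GC content and length H2-Aa in knockout was at 0.75 with an edgeR adjusted p of 0.0633. H2-Eb2, a further beta chain, had no count in the 3 wild-type chow libraries and 33 in the 3 wild-type FFC libraries, at least 6.11-fold higher against a floor of 3 counts over the group. In knockout it had 1 count on chow and 22 on FFC, a ratio of 13.5 with a 95% counting interval of 2.18 to 556.

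**Figure D2:**
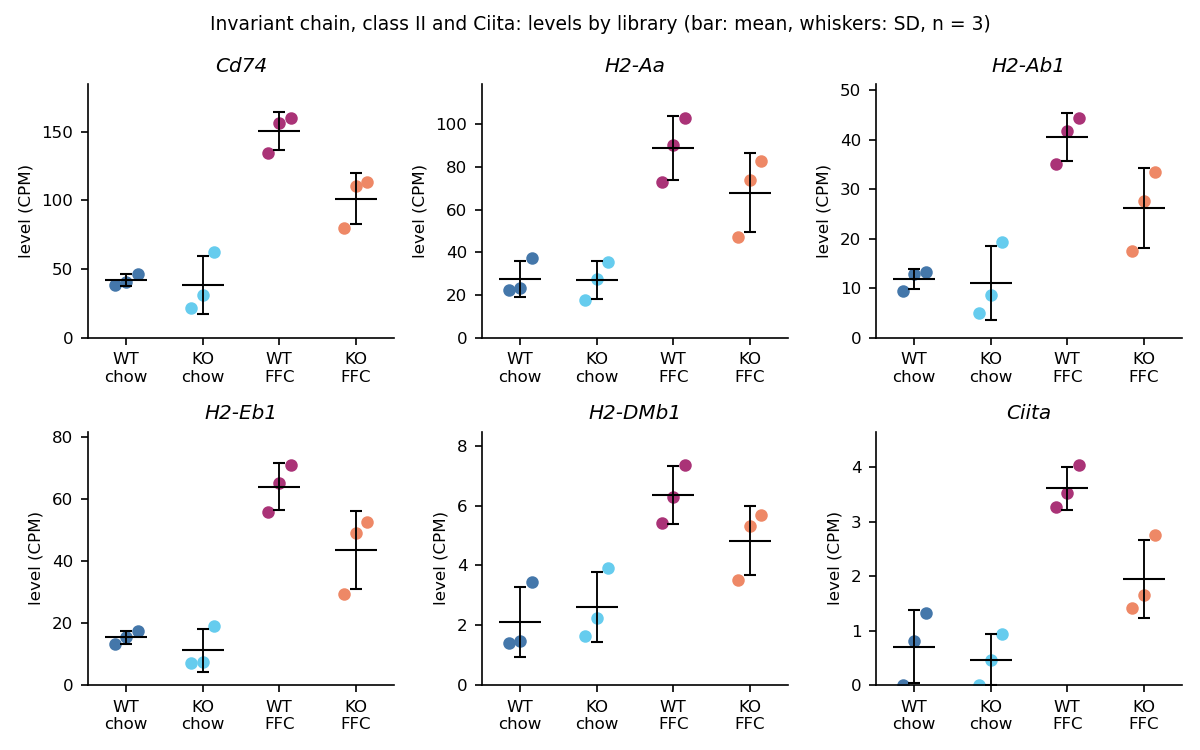
Levels in CPM (vertical axes, each from 0) of Cd74, 3 class II chains, H2-DMb1 and Ciita in the 12 libraries, with wild type (WT) and knockout (KO) on each diet. Points are libraries and bars with whiskers are mean and SD; the FFC libraries of Cd74 reach 79.6 to 160 CPM against 21.5 to 62.1 CPM on chow.

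Chains and invariant chain kept nearly the same proportion. The summed level of H2-Aa, H2-Ab1 and H2-Eb1 over that of Cd74 was 1.302 ± 0.134 in wild-type chow, 1.32 ± 0.116 in knockout chow, 1.28 ± 0.0751 in wild-type FFC and 1.35 ± 0.144 in knockout FFC livers (SD, n = 3). The group means differed by less than the spread within groups, whereas the sum itself went from 45.9 to 67.6 CPM in wild-type chow libraries to 164 to 219 CPM on FFC.

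Among the 5 genes of peptide exchange, H2-DMb1 passed in wild type and H2-Ob in knockout, and neither difference between the genotypes' diet changes passed (edgeR adjusted p 0.544 and 0.498). H2-DMb1, a beta chain of H2-DM, was 1.39, 1.48 and 3.46 CPM in wild-type chow and 6.29, 5.43 and 7.37 CPM in wild-type FFC. Its log2 change was 1.59 (SE 0.39, edgeR adjusted p = 0.0104) in wild type, and 0.88 (SE 0.39, edgeR adjusted p = 0.1002) in knockout, where the levels were 1.65 to 3.92 CPM on chow and 3.52 to 5.67 CPM on FFC. The wild-type diets did not overlap, while the highest knockout chow library lay above the lowest knockout FFC library. Without wild-type chow replicate 2 or 3 the edgeR adjusted p of H2-DMb1 in wild type was 0.0506 and 0.0588, and without knockout chow replicate 1 it passed in knockout at 1.30 (0.0257). H2-DMb2, whose window above carries the same pair of matches, was 0.960, 1.00 and 0.802 CPM in wild-type and 1.91, 0.459 and 0 CPM in knockout chow livers, and 1.07, 1.69 and 1.82 CPM and 1.06, 0.608 and 0.626 CPM on FFC. It had a log2 change of 0.72 (SE 0.77) in wild type and -0.08 (SE 0.79) in knockout, and neither passed. Of its 50-base windows 30.9% also occur in another gene, mostly H2-DMb1, and 27.2% of those of H2-DMb1 occur in H2-DMb2, so reads may be divided between them. H2-Ob, a chain of H2-O, was 0.686 CPM in knockout chow replicate 1 and 0 in replicates 2 and 3, against 1.69, 1.39 and 1.32 CPM in knockout FFC. That gave a log2 change of 2.58 (SE 0.89, edgeR adjusted p = 0.0404) on 14 and 132 summed counts. In wild type H2-Ob was at 0.87 (SE 0.81), with every FFC library above every chow library, and did not pass. The call of H2-Ob ended without wild-type chow replicate 2, knockout chow replicate 2 or 3, or any 1 FFC library (edgeR adjusted p 0.0527 to 0.107). It also ended with a term for the replicate number, the 2 groups alone or GC content and length offsets (0.0751 to 0.140). H2-DMa, the alpha chain of H2-DM, was 2.40, 1.74 and 2.76 CPM in wild-type and 6.27, 1.07 and 1.18 CPM in knockout chow livers, against 5.56, 4.98 and 6.02 CPM and 5.87, 3.78 and 3.59 CPM on FFC. It did not pass at 1.26 (SE 0.50) in wild type and 0.62 (SE 0.49) in knockout, where replicate 1 was the highest of both diets. Without that library H2-DMa passed in knockout at 1.97 (edgeR adjusted p 0.00129), and H2-DMb2 was at 1.62 (0.149). H2-Oa did not pass either, on at most 28 summed counts in a group.

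Ciita was higher in each FFC than in each chow library, although the test was not passed. It was 0, 1.32 and 0.802 CPM in wild-type chow and 0.931, 0.459 and 0 CPM in knockout chow. On FFC it was 4.05, 3.27 and 3.52 CPM in wild type and 2.75, 1.65 and 1.42 CPM in knockout. The chow levels rest on few reads, 41 and 28 summed counts in the wild-type and knockout groups. The log2 change was 2.36 (SE 0.82, edgeR adjusted p = 0.0597) in wild type and 2.00 (SE 0.85, edgeR adjusted p = 0.0922) in knockout. Of 22 alternatives, Ciita did not pass in 15 and passed in 7 in wild type, and did not pass in 19 and passed in 3 in knockout. Ciita overlaps Dexi on the other strand, which had a mean count of 235 against 52.7 for Ciita, and the strandedness of counting is not given in the sources used here.

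Beside the class II genes, most macrophage markers and a minority of dendritic cell markers passed as higher on FFC. The 9 macrophage markers summed to 130 to 148 CPM in wild-type chow and 140.1 to 194 CPM in knockout chow libraries, against 356 to 426 and 324 to 456 CPM on FFC, with 9 of 9 higher in wild type and 8 of 9 in knockout. The 9 dendritic cell markers summed to 4.16 to 8.18 and 5.00 to 8.41 CPM on chow and to 21.5 to 28.0 and 12.7 to 20.4 CPM on FFC, with 4 of 9 higher in wild type and 3 of 9 in knockout. Of 7 tested B cell markers, 1 was higher in wild type and 3 in knockout, with sums of 7.50 to 21.5 CPM on chow and 17.3 to 26.8 CPM on FFC. Of 8 Kupffer cell markers, which mark resident liver macrophages, 4 were higher and 2 lower in wild type and 6 higher in knockout, with sums of 453 to 681 and 471 to 675 CPM on chow and 521 to 594 and 749 to 899 CPM on FFC. Endothelial markers were higher for 5 of 8 in each genotype, and stellate cell markers for 6 of 7 in wild type and 2 of 7 in knockout. These counts depend on the scaling. With GC content and length offsets 4 endothelial markers were higher in wild type, and 0 higher and 1 lower in knockout. In wild type and knockout those offsets gave 5 and 1 stellate, 8 and 7 macrophage and 3 and 2 dendritic cell markers higher. Library totals alone gave 7 and 6 endothelial, 7 and 5 stellate, 9 and 9 macrophage and 5 and 6 dendritic cell markers higher. No marker of these lists was at 0 in a whole group, none of 10 T and NK cell markers passed, and the part of these cells in the class II levels was not tested.

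**Figure D3:**
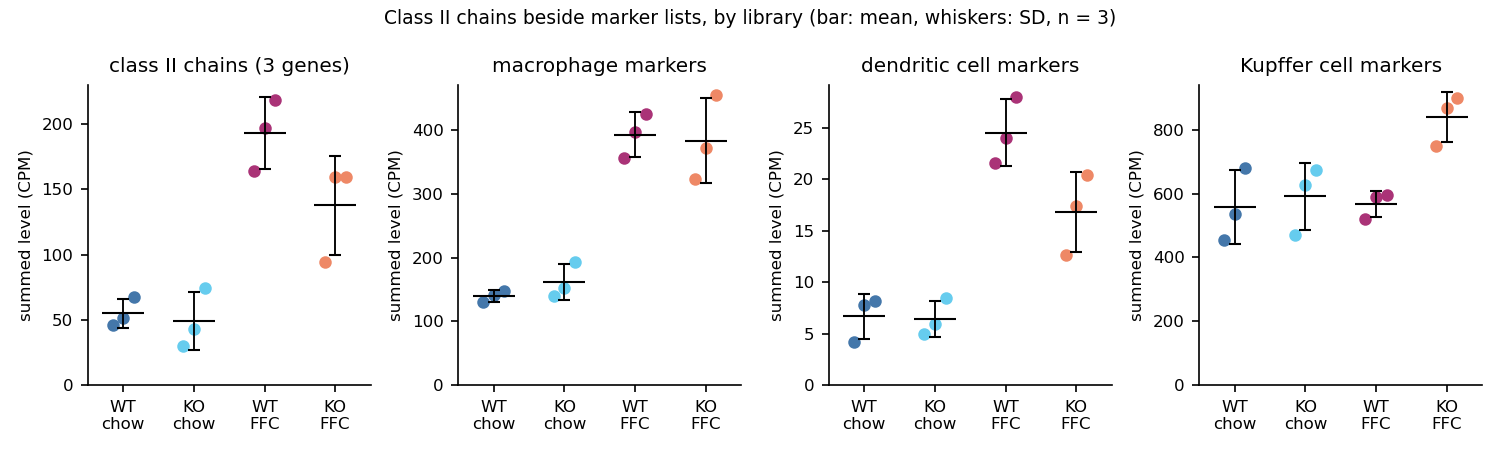
Summed levels in CPM (vertical axes from 0) of H2-Aa, H2-Ab1 and H2-Eb1 and of 9 macrophage, 9 dendritic cell and 8 Kupffer cell markers, per library in the 4 groups, with mean and SD. Class II, macrophage and dendritic cell sums are higher in all FFC than in all chow libraries, and on FFC the Kupffer cell sum is 749 to 899 CPM in knockout against 521 to 594 CPM in wild type.

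Among the class I genes, neither classical heavy chain passed in a diet comparison, and B2m fell in both. H2-K1 (chromosome 17, 33996017 to 34000333) was 885, 899 and 1125 CPM in wild-type chow and 911, 844 and 899 CPM in wild-type FFC. In knockout it was 1718, 1119 and 1053 CPM in chow and 889.9, 957 and 1003 CPM in FFC. Wild-type diets overlapped, knockout diets did not, and knockout chow replicate 1 stood above all other libraries. The log2 change of H2-K1 was -0.13 (95% interval -0.53 to 0.27) in wild type and -0.45 (-0.85 to -0.05, edgeR adjusted p = 0.0900) in knockout, and it turned to 0.29 and 0.01 with library totals alone. H2-D1, the other classical heavy chain, was 323, 313 and 356 CPM in wild-type and 690.3, 371 and 385 CPM in knockout chow livers, and 433, 361 and 429.98 CPM and 475, 375 and 381 CPM on FFC. Its log2 changes of 0.30 (SE 0.21) in wild type, where the diets did not overlap, and -0.23 (SE 0.21) in knockout did not pass, and the second was 0.12 without knockout chow replicate 1. The ratio of H2-K1 to H2-D1 per kilobase was 2.71 to 3.12 in the wild-type livers on chow and 2.07 to 2.31 in those on FFC, without overlap, while in knockout it was 2.46 to 2.99 and 1.85 to 2.599, which overlapped.

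B2m was 1538, 2780 and 2048 CPM in wild-type chow and 1416, 1387 and 1435 CPM in wild-type FFC. The knockout levels were 2705, 3498 and 3177 CPM in chow and 1466, 1691 and 1696 CPM in FFC. Chow libraries lay above FFC libraries in both genotypes, most widely in knockout. B2m fell by 0.59 on the log2 scale (SE 0.20, edgeR adjusted p = 0.0499) in wild type and by 0.95 (SE 0.20, edgeR adjusted p = 0.00257) in knockout. In wild type the call ended without wild-type chow replicate 3 or 4 or any 1 FFC library (edgeR adjusted p 0.0649 to 0.267). The last value was without wild-type chow replicate 3, where the change was -0.35. The wild-type call also ended with library totals alone (-0.15), GC content and length offsets (-0.12), no filter on low counts or the authors' expression filter. A term for the replicate number and thinning to equal depth ended it too. In knockout the call held in each alternative tried (-1.04 to -0.47).

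The transporter genes and tapasin differed among themselves. Tapbp (chromosome 17, 33915899 to 33929288) was 58.6, 68.1 and 53.5 CPM in wild-type chow and 57.1, 55.3 and 54.3 CPM in wild-type FFC. In knockout it stood at 122, 101 and 76.4 CPM in chow and 60.8, 56.4 and 44.0 CPM in FFC. Only the knockout chow libraries were set apart, all 3 above the other 9. Tapbp fell by 0.90 on the log2 scale (SE 0.19, edgeR adjusted p = 0.00257) on FFC in knockout and was at -0.11 (SE 0.19) in wild type, while with library totals alone the knockout value was -0.42 (edgeR adjusted p 0.0925).
Tap2 rose on FFC in wild type, from 9.26, 9.70 and 11.9 CPM in chow to 17.8, 18.7 and 18.5 CPM in FFC, a log2 change of 0.84 (SE 0.27, edgeR adjusted p = 0.0438). Its knockout levels were 30.9, 17.7 and 13.6 CPM in chow and 19.04, 10.2 and 15.0 CPM in FFC, which overlapped, at -0.50 (SE 0.27), or -0.09 without knockout chow replicate 1. The wild-type call of Tap2 was lost without any 1 of the 6 wild-type libraries or knockout FFC replicate 7 (edgeR adjusted p 0.0560 to 0.144). It was also lost with GC content and length offsets (0.33, adjusted p 0.192), median-ratio size factors and thinning to equal depth. Tap1 stood at 18.96, 21.4 and 22.01 CPM in wild-type chow livers, 26.9, 20.2 and 13.1 CPM in knockout chow livers, 27.6, 28.1 and 27.97 CPM in wild-type FFC livers and 32.9, 18.2 and 30.9 CPM in knockout FFC livers. The wild-type diets did not overlap and the knockout diets did. Neither diet change of Tap1 passed, at 0.43 (SE 0.24) and 0.44 (SE 0.24), the first was -0.11 with GC content and length offsets, and the second was 0.71 without knockout chow replicate 1 (edgeR adjusted p 0.0331). Tap1 overlaps Psmb9, an immunoproteasome gene on the other strand, with a mean count of 515 against 655.

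Nlrc5 (chromosome 8, 94472763 to 94527272) rose on FFC in knockout. Its levels were 12.3, 13.0 and 6.98 CPM in knockout chow and 24.3, 20.2 and 21.1 CPM in knockout FFC. In wild type they were 19.6, 16.5 and 15.7 CPM in chow and 20.3, 22.6 and 21.4 CPM in FFC. Diets did not overlap in either genotype, the knockout chow libraries being lowest. The log2 change was 1.02 (SE 0.22, edgeR adjusted p = 0.00281) in knockout and 0.31 (SE 0.21, edgeR adjusted p = 0.344) in wild type, and with GC content and length offsets it was 0.52 (edgeR adjusted p 0.0365) and -0.30. The difference of these 2 changes was 0.71 (SE 0.30, unadjusted p = 0.0309, edgeR adjusted p = 0.263) and did not pass.

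**Figure D4:**
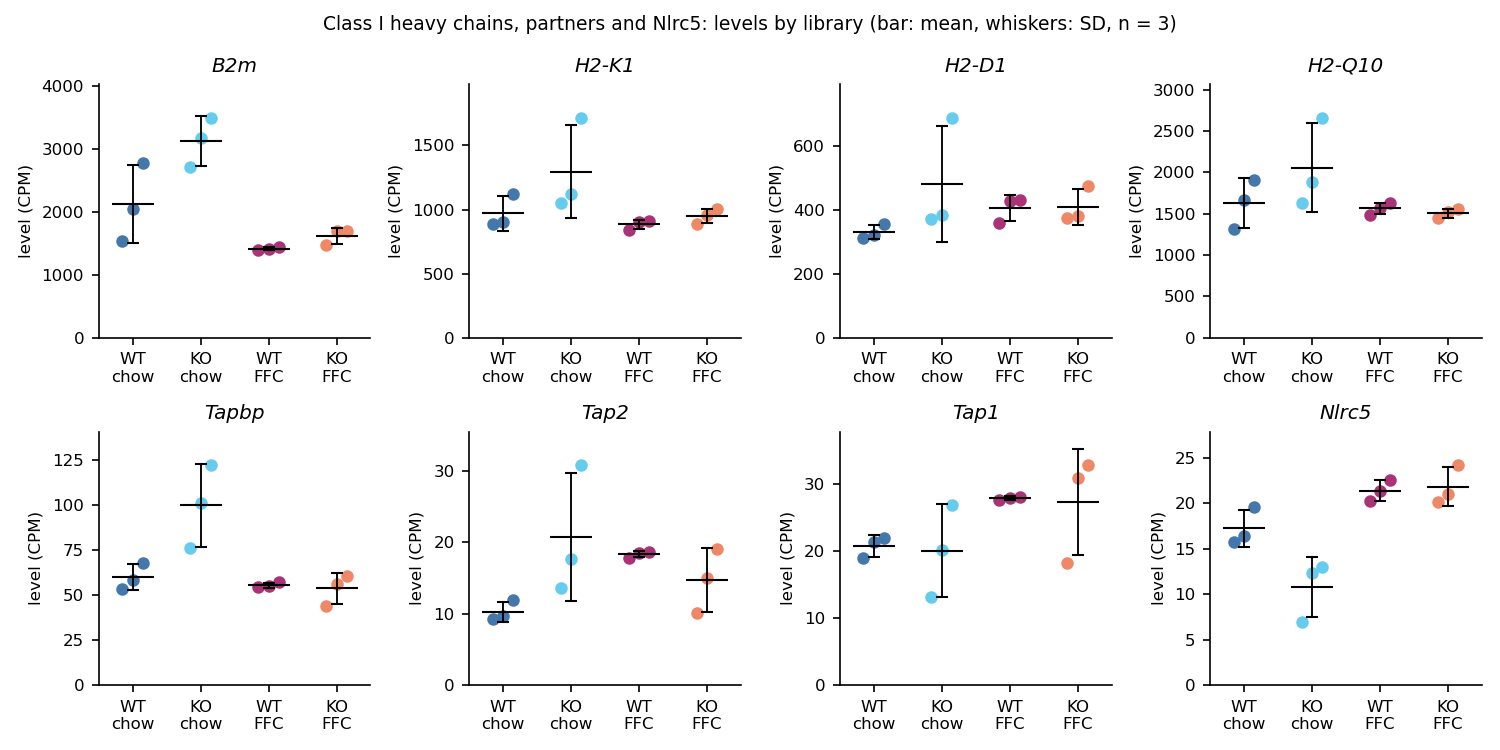
Levels in CPM (vertical axes, each from 0) of B2m, the heavy chain genes H2-K1, H2-D1 and H2-Q10, and Tapbp, Tap2, Tap1 and Nlrc5 in the 12 libraries; points are libraries, bars and whiskers mean and SD over 3 libraries. Knockout chow is the group set apart in Tapbp (high, 76.4 to 122 CPM) and Nlrc5 (low, 6.98 to 13.0 CPM). Its B2m levels (2705 to 3498 CPM) overlap those of wild-type chow, which reach 2780 CPM.

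Of the 12 tested genes in the group of non-classical and other H2- genes, 3 rose in wild type (H2-Q1, H2-M2 and H2-T24), and in knockout 4 rose (the same 3 and H2-M3) and 2 fell (H2-Q2 and H2-Ke6). H2-Q1 (ENSMUSG00000079507, chromosome 17, 35320405 to 35325099), a class Ib gene of the Q region, had the lowest p of all genes examined here. It was 10.5, 5.91 and 9.07 CPM in wild-type chow and 10.5, 7.70 and 10.1 CPM in knockout chow. On FFC it reached 38.7, 32.0 and 41.1 CPM in wild type and 21.5, 22.7 and 17.5 CPM in knockout. The 3 levels were separate: chow lowest, knockout FFC between, wild-type FFC highest. The log2 change was 2.13 (SE 0.22, edgeR adjusted p = 1.63e-05) in wild type and 1.12 (SE 0.22, edgeR adjusted p = 0.00167) in knockout. Of the 50-base windows of H2-Q1, 16.1% also occur in other genes, most often H2-Q2 (9.75%), so reads may be divided between them. The share was 8.74% for H2-Q2 and 14.3% for H2-D1, for the latter most often with H2-Q1 (7.40%).

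H2-M2, a gene of the M region, was at 0 in 5 of the 6 chow libraries and 0.264 CPM in wild-type chow replicate 3. On FFC it was 2.44, 1.19 and 1.29 CPM in wild type and 0.597, 0.473 and 0.362 CPM in knockout. All FFC libraries lay above the chow libraries, on 5 and 176 summed counts in wild type. The log2 change in wild type was 4.19 (SE 1.01, edgeR adjusted p = 0.0108), with an edgeR adjusted p of 0.0710 without wild-type FFC replicate 2. In knockout 0 against 43 counts made H2-M2 at least 8.79-fold higher on FFC against a floor of 3 counts over the group. It passed the filter on low counts through its FFC libraries alone, so its calls are no support for a difference.

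H2-T24 was 0.949 to 2.81 CPM in wild-type chow and 0.931 to 2.80 CPM in knockout chow, against 4.77 to 5.39 and 3.82 to 5.66 CPM on FFC. Its log2 changes of 1.48 (edgeR adjusted p = 0.0204) and 1.24 (edgeR adjusted p = 0.0334) were often lost with 1 library left out. In wild type this held for chow replicates 2 and 3 and FFC replicates 2 and 4 (edgeR adjusted p 0.0593 to 0.0915), and in knockout for chow replicates 1 and 3 and each FFC replicate (0.0557 to 0.122). The knockout call was also lost in 4 other settings, among them GC content and length offsets. H2-T24 overlaps A930015D03Rik on the other strand, with a mean count of 44.6 against 97.4. That gene passed as higher on FFC in knockout (1.46, edgeR adjusted p = 0.0314) and did not pass in wild type (0.57). H2-M3, which presents formylated peptides, rose by 1.06 (SE 0.29, edgeR adjusted p = 0.0130) in knockout, from 1.84 to 3.11 CPM to 4.78 to 5.44 CPM, and was at 0.75 (edgeR adjusted p = 0.0798) in wild type. Without knockout FFC replicate 1 its adjusted p was 0.0517. The knockout call of H2-M3 was also lost with a term for the replicate number, the 2 groups alone and voom with quality weights (adjusted p 0.0654 to 0.0812).

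H2-Q2 moved the other way in knockout. It was 7.10, 7.34 and 3.29 CPM in knockout chow and 1.92, 1.89 and 1.78 CPM in knockout FFC, against 2.06 to 5.11 CPM in wild-type chow and 3.54 to 6.25 CPM in wild-type FFC. The knockout FFC libraries were the lowest of all 12. Its log2 change fell by 1.67 (SE 0.39, edgeR adjusted p = 0.00484) in knockout and was at 0.31 (SE 0.37) in wild type. H2-Ke6 fell by 0.82 (SE 0.18, edgeR adjusted p = 0.00368) in knockout, from 108, 76.9 and 79.3 CPM to 44.0, 55.1 and 51.0 CPM, and stood at 55.4, 49.0 and 67.6 CPM and 39.1, 45.2 and 44.6 CPM in wild type. It lies in the MHC but encodes a hydroxysteroid dehydrogenase, and 96.3% of its 50-base windows occur in the overlapping transcript Gm20427, so its counts are uncertain. H2-Ke6 in knockout was at -0.36 with library totals alone (edgeR adjusted p 0.154) and -0.27 with GC content and length offsets (0.265).

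**Figure D5:**
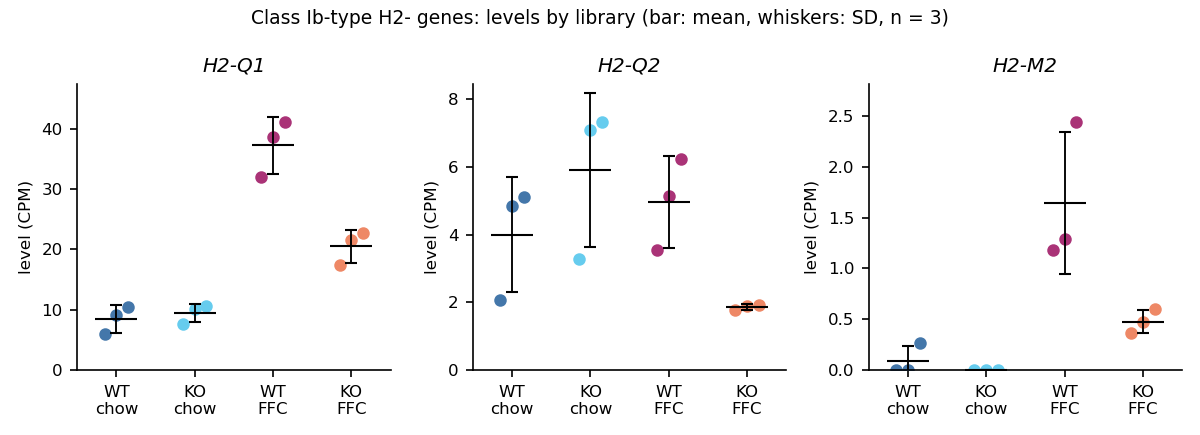
Levels in CPM (vertical axes, each from 0) of H2-Q1, H2-Q2 and H2-M2 in the 12 libraries; points are libraries, bars and whiskers mean and SD over 3 libraries. On FFC the knockout libraries lie below the wild-type libraries for all 3 genes, for H2-Q1 at 17.5 to 22.7 against 32.0 to 41.1 CPM.

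The remaining class I genes H2-Q4, H2-Q6, H2-Q7, H2-Q10, H2-T22 and H2-T23 did not pass in either diet comparison. Their log2 changes were -0.52 (H2-T23) to 0.27 (H2-Q6) in wild type and -0.49 (H2-Q7) to 0.46 (H2-Q6) in knockout. Without knockout chow replicate 1, H2-T22 passed as lower in knockout (-0.42, edgeR adjusted p 0.0476). All of these class I genes share sequence with other genes, from 16.0% of 50-base windows in H2-T23 and 19.7% in H2-Q10 to 58.5% in H2-T22, so their counts are uncertain.

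On FFC, knockout and wild-type livers were compared to ask whether the myeloid loss of S1pr1 altered these genes under the diet. None of the 29 passed, where 0.0184% of all genes did (0.0123% higher and 0.00614% lower, 3 genes in all). DESeq2 and limma-voom also called none, and 4 of the 29 had an unadjusted p under 0.05, against 3.63% of all genes. Knockout libraries lay below every wild-type library for 8 of 29 genes, against 10.5% of all genes, and above for 3 (B2m, H2-T22 and H2-T23), against 10.9%. The 8 were Cd74, H2-Ab1, H2-Eb1, Ciita, H2-DMb2, H2-Q1, H2-Q2 and H2-M2. The wild-type FFC libraries here are those of the wild-type diet comparison, so the values are not independent of it.

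For Cd74 the difference on FFC was -0.57 (95% interval -1.15 to 0.00, edgeR adjusted p = 1.00), on the library values of 79.6 to 114 CPM in knockout and 134 to 160 CPM in wild type given above. H2-Ab1 and H2-Eb1 were at -0.62 (-1.37 to 0.12) and -0.55 (-1.20 to 0.10), H2-Aa at -0.39 (-0.94 to 0.16) and Ciita at -0.89 (-2.48 to 0.69). Each of these intervals includes 0.
H2-Q1 was at -0.86 (SE 0.21, unadjusted p = 8.40e-04 and edgeR adjusted p = 0.709) and H2-Q2 at -1.41 (SE 0.38, unadjusted p = 0.00163 and edgeR adjusted p = 0.808). With no filter on low counts both passed, with adjusted p of 0.0328 for H2-Q1 and 0.0264 for H2-Q2. In voom with library quality weights both passed too (0.00253 and 0.0483), and H2-Q1 passed in a fit of the 2 FFC groups alone (0.0389). No filter, quality weights and the 2 groups alone called 0.446%, 0.626% and 0.107% of all genes. Beside these differences the dendritic cell markers summed to 12.7 to 20.4 CPM in knockout and 21.5 to 28.0 CPM in wild type, without overlap, although 0 of 9 passed. The macrophage sums overlapped, and the 8 Kupffer cell markers summed to 749 to 899 CPM in knockout against 521 to 594 CPM in wild type, with 2 of 8 higher. The part of these cells in the class II and class Ib differences was not tested.

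On chow, 3 of the 29 genes were higher in knockout than in wild type and none lower, where 7.28% of all genes passed (4.01% higher, 3.27% lower). They were Tapbp, Tap2 and H2-Ke6, from the levels given above, with log2 differences of 0.74 (SE 0.19, edgeR adjusted p = 0.0303), 1.02 (SE 0.27, edgeR adjusted p = 0.0357) and 0.62 (SE 0.18, edgeR adjusted p = 0.0447). None of the 3 passed with library totals alone (edgeR adjusted p 0.0697, 0.0734 and 0.143) or with GC content and length offsets, where they were at 0.37, 0.63 and 0.088 (0.199, 0.0547 and 0.823). Levels did not overlap, upwards, for 5 of 29 genes (9.62% of all), which adds H2-D1 and H2-T22, and downwards for Nlrc5 (11% of all). Nlrc5 was at -0.68 (SE 0.22, edgeR adjusted p = 0.0621), and B2m at 0.56 (edgeR adjusted p = 0.0865). With GC content and length offsets B2m (0.82, edgeR adjusted p 0.0138) and H2-T22 (0.52, 0.0346) passed as higher, where 4.68% of all genes passed. The class II chains and Cd74 lay between -0.45 and -0.04 and did not pass.

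All 3 genes overlap other annotated genes: Tapbp overlaps Zbtb22 and the antisense gene Gm19412, Tap2 overlaps Gm15821 and Gm20496 on the other strand, and H2-Ke6 overlaps Gm20427, which also passed at 0.73 (edgeR adjusted p = 0.0410). Without knockout chow replicate 1, which also had the highest Tap2, none of the 3 passed, at 0.56 for Tapbp, 0.61 for Tap2 and 0.44 for H2-Ke6, and H2-Eb1 (-1.09, edgeR adjusted p = 0.0237) and H2-Ob passed as lower instead. No gene passed without wild-type chow replicate 2 or 4 or any 1 of the wild-type FFC libraries, and 1 did without knockout FFC replicate 7. DESeq2 called 6 genes: these 3, H2-T22 and B2m as higher, and Nlrc5 as lower.

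The difference of the 2 diet changes was tested directly, and none of the 29 genes passed, where 0.0491% of all genes did, 0.0246% in each direction. Of the 29, 5 had an unadjusted p under 0.05 (16.1% of all genes), and limma-voom called none. These were H2-Q2 at -1.98 (SE 0.53), Tap2 at -1.33 (SE 0.38), H2-Q1 at -1.01 (SE 0.31), Tapbp at -0.78 (SE 0.26) and Nlrc5 at 0.71, as knockout minus wild type. DESeq2 called H2-Q2 and Tap2 (adjusted p 0.0226 and 0.0473), where it called 2.62% of all genes. Without knockout chow replicate 3 the edgeR fit called H2-Q2, Tap2 and Tapbp (0.0250, 0.0290 and 0.0399), and 3.45% of all genes. For Cd74 the difference was -0.44 (95% interval -1.26 to 0.37) and for H2-Eb1 -0.10 (-1.03 to 0.84), so the class II rise is not shown to differ between genotypes.

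Other genes of the pathways were taken from 3 lists. Of 15 tested genes of the class I pathway, 3 were lower on FFC in wild type and 6 in knockout, and none was higher. This direction depends on the scaling, since library totals alone gave 0 lower in wild type and 4 higher and 1 lower in knockout, and GC content and length offsets gave 10 and 9 lower. Psmb10, an immunoproteasome subunit, went from 23.3 to 34.6 CPM to 17.1 to 19.9 CPM in wild type (log2 change -0.74, SE 0.21, edgeR adjusted p = 0.0205) and by -1.17 (SE 0.21, edgeR adjusted p = 8.29e-04) in knockout. Psme1, a proteasome activator subunit, was at -0.68 (SE 0.17, edgeR adjusted p = 0.00994) and -0.82 (SE 0.17, edgeR adjusted p = 0.00205). Fcgrt, the Fc receptor heavy chain that pairs with beta-2 microglobulin, fell in knockout by 0.88 (SE 0.17, edgeR adjusted p = 0.00141), with 251 to 363 CPM on chow and 158 to 178 CPM on FFC. On chow Fcgrt (0.84, edgeR adjusted p = 0.0179) and Psmb10 (0.82, edgeR adjusted p = 0.0301) were higher in knockout than in wild type, the 2 of 15 that passed there, and so did 2 of 15 class II pathway genes, Ctsd and Cd80.

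Of 15 class II pathway genes, 5 rose and 3 fell on FFC in wild type, and 6 rose and 1 fell in knockout. Library totals alone gave 10 higher and 0 lower in each genotype, and GC content and length offsets 6 higher and 3 lower in wild type and 3 higher and 4 lower in knockout. Ctss, the cathepsin that cleaves the invariant chain, rose from 20.3 to 33.9 CPM to 74.1 to 85.3 CPM in wild type and from 23.6 to 33.3 CPM to 64.5 to 83.5 CPM in knockout. Its log2 changes were 1.71 (SE 0.21, edgeR adjusted p = 6.03e-05) and 1.45 (SE 0.21, edgeR adjusted p = 2.02e-04). Cd83, which stabilises class II at the cell surface, rose by 2.53 (SE 0.37) and 2.35 (SE 0.36), and Lgmn, a lysosomal protease, by 0.79 (SE 0.16) and 0.55 (SE 0.16). The genes that fell were Ctsh, Ctsl and Lamp2 in wild type and Ctsh in knockout, lysosomal proteins that hepatocytes also make.

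Of 16 tested regulators, 4 rose in each genotype and none fell, against 8 and 10 with library totals alone, and with GC content and length offsets 0 passed in wild type and 4 rose and 2 fell in knockout. The interferon-gamma receptor genes Ifngr1 and Ifngr2 rose in knockout, by 0.98 (SE 0.19) and 1.14 (SE 0.23), and did not pass in wild type, at 0.52 (SE 0.18) and 0.43 (SE 0.23), and 0 of the 16 regulators passed in the difference of diet changes. Nfya, a subunit of the factor that binds the Y box, was chosen for mention after its values were seen. It rose by 1.06 (SE 0.31, edgeR adjusted p = 0.0263) in wild type and 1.32 (SE 0.32, edgeR adjusted p = 0.00618) in knockout. Nfyb, Nfyc, Rfx5, Rfxap and Rfxank, also among the listed X and Y box factors, did not pass in either. None of the genes in these 3 lists passed between genotypes on FFC.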

How the data were processed

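Paired-end reads of whole liver RNA were aligned by the authors to mm10 with TopHat 2.1.0 and counted over Ensembl genes with featureCounts 1.4.6, as the design text of the series says. The deposited table holds these raw counts for 12 libraries, and the authors used edgeR 3.18.1 for their own tests. Coordinates are those of the deposited table. Strandedness of the counting and the Ensembl release are not given in the sources used here, so reads of overlapping genes may be shared.

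Low genes were removed with filterByExpr, libraries were scaled by TMM, and edgeR 4.0.16 (in R 4.3.3, with limma 3.58.1) was used to fit 1 robust quasi-likelihood model to all 12 libraries in 4 groups. It gave 5 contrasts, tested two-sided and adjusted by Benjamini-Hochberg over 16283 genes at a threshold of 0.05. The SE was derived from the log2 change and its test statistic. Total counts per library (18873092 to 31154930) set the precision. The pipeline was tested on simulated data.

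The genes, lists, roles, markers and tests were chosen with earlier results of these data known. Values in each library or group are given for up to 4 genes per role with the lowest p in any contrast and for Cd74, H2-Ab1, H2-K1, B2m, Tap1, Nlrc5 and Ciita. From each pathway list the 3 genes with the lowest p in a diet contrast are named, except 1 that is not reported here, and genes outside the rule were named after their values were seen. Beside the lists described, markers of neutrophils were counted: on FFC, 1 of 4 tested ones rose in each genotype.

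Alternatives were DESeq2 1.42.0, limma-voom, median-ratio size factors, no filter, the authors' expression filter (RPKM of at least 1, computed from counts and gene length), a term for the replicate number, the compared groups alone, an adjusted p under 0.1 and each library left out. Added after seeing the data were offsets for transcript length and GC content, which 99.06% of tested genes had, voom with quality weights, thinning to equal depth and library totals alone. Sharing of sequence was measured as the percent of 50-base windows of a gene's longest transcript (GENCODE, GRCm38) found in transcripts of other genes.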

Additional observations from a re-analysis of the deposited data

Results flagged for a closer look

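H2-Bl, an H2- gene listed as a polymorphic pseudogene and therefore outside the protein-coding set, was counted on FFC above its chow level in knockout. It was 0 to 0.510 CPM in knockout chow and 1.55 to 2.92 CPM in knockout FFC libraries, on 20 and 197 summed counts, a log2 change of 2.64 (SE 0.69, edgeR adjusted p = 0.0101). In wild type the levels were 0.633 to 1.54 CPM and 1.11 to 1.61 CPM, a log2 change of 0.38 (SE 0.63), which did not pass. The difference of these changes was 2.26 (SE 0.93, edgeR adjusted p = 0.245) and did not pass. It was drawn to attention because a signal appeared in data outside the genes compared. Groups of 3 libraries are too small for a test of single outlying libraries.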

How the results depend on the processing

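Of 41 results for single genes, 27 passed the threshold, and 12 of these kept their direction and their side of it in every alternative run. They are Cd74, H2-Eb1 and H2-Q1 in both diet comparisons, H2-Aa and H2-Ab1 in wild type, and B2m, Nlrc5, H2-Q2 and H2-M2 in knockout, of which H2-M2 passed the filter on low counts only through its FFC libraries and supports nothing. The other 15 lost their call in at least 1 alternative, and 7 results of genes that had not passed changed sign in at least 1. With 1 library left out, the number of genes called ranged from 6 to 15 for diet in wild type, 10 to 17 for diet in knockout, 0 to 0 for genotype on FFC, 0 to 4 for genotype on chow and 0 to 3 for the difference of diet changes. Shares of all genes were, in that order, 7.81% to 23.2%, 16.4% to 29.6%, 0.00596% to 0.0298%, 0.202% to 15.1% and 0% to 3.45%. Library totals alone gave 17 for diet in wild type (27.0% of all genes) and 1 for genotype on chow (10.4%). That 1 was Nlrc5 as lower (-0.86, edgeR adjusted p 0.0276) and none of the 3 called otherwise. Genotype on FFC gave 2 with no filter, 1 with the 2 compared groups alone and 2 with quality weights. Those settings called 0.446%, 0.107% and 0.626% of all genes. Genotype on chow gave 6 with DESeq2 (13.8% of all genes) and 5 at an adjusted p under 0.1. It gave 0 with the 2 groups alone, with quality weights and with the replicate block. Those 3 settings called 0%, 0.866% and 1.12% of all genes. With GC content and length offsets B2m and H2-T22 passed there, against 4.68% of all genes. The difference of diet changes gave 2 with DESeq2, 2 with no filter and 1 with the replicate block. Of all genes, 2.62%, 2.35% and 2.43% were called in these settings.

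Sign changes were those of H2-K1 with library totals alone (0.29 for diet in wild type, 0.012 for diet in knockout, -0.027 for genotype on FFC) and with the replicate block (-0.22 for genotype on FFC). With GC content and length offsets, diet in wild type was -0.11 for Tap1 and -0.30 for Nlrc5. For genotype on FFC, Tap1 was 0.092 with those offsets, 0.0082 after thinning and -0.18 to 0.19 with 1 library left out (positive without knockout FFC replicate 4). In the same comparison Nlrc5 was -0.085 with the replicate block, -0.029 after thinning, -0.096 with library totals alone and -0.053 to 0.082 with 1 library left out (negative without wild-type FFC replicate 2 or knockout FFC replicate 1). The causes were not tested.

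Same-numbered libraries of wild-type chow and FFC did not deviate together (correlations of -0.044, -0.0031 and -0.011), so the numbers are taken as names. With the replicate block, 11 genes were called for diet in wild type, 15 for diet in knockout and 0 for genotype on FFC. Small groups and low counts limit H2-M2, H2-Ob, H2-Oa and Ciita most.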
